A study of Danio rerio with 20 samples.

Results

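In untreated zebrafish gastrulae, 5561 Sox3 sites were called in both control libraries and in neither library from embryos exposed to all-trans retinoic acid (atRA). They are peaks of Sox3 control replicate 1 on chromosomes 1 to 25 that overlapped a peak of control replicate 2 by at least 1 bp and no peak of either atRA library. They were drawn from 103127 peaks of that replicate, of which 43457 (42.1%) had a partner in control replicate 2. The absent sites were thus 12.8% of the sites found in both controls. Another 31205 sites (71.8%) had a peak in both atRA libraries and are called kept here, and 6691 (15.4%) had one in a single atRA library. The same rule applied the other way round gave 16367 sites called in both atRA libraries and neither control, which is 24.9% of the 65706 sites of both atRA libraries. These numbers follow from the rule and carry no test.

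The series profiled binding by ChIP-seq (ChIPmentation) in whole wild-type embryos with antibodies against Sox3, Raraa, Hoxb1b and Meis2b. At 80% epiboly each antibody had 2 libraries from untreated controls and 2 from embryos given 0.1 µM atRA from 30% epiboly onward. Untreated embryos of 5 somites and of 24 hpf (hours post fertilisation) were profiled with the Raraa antibody alone, again in 2 libraries per stage. All 20 libraries were of wild-type genotype and of whole embryos, so a site bound in fewer cells and a site bound less strongly in each cell cannot be told apart. The labels do not say whether replicates came from separate clutches.

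Sox3 is a SoxB1 transcription factor of early ectoderm and neural progenitors, and SoxB1 proteins bind DNA through an HMG domain. Retinoic acid receptors such as Raraa bind DNA as heterodimers with retinoid X receptors and change transcription when the ligand is present. In the vertebrate embryo retinoic acid posteriorises the neural plate, and Hox genes of the anterior groups, including hoxb1b, are among its classical targets. Meis proteins are homeodomain cofactors of Hox and Pbx proteins. The question put to these sites is which of the other factors were called there, with and without atRA, and whether Raraa was called there later.

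The 4 Sox3 lists differed in background and in length. The background recovered from the peak values, in fragments covering a base, was 0.425 in control replicate 1, 0.969 in control replicate 2, and 1.12 and 1.02 in atRA replicates 1 and 2. The anchor list thus had the lowest background of the 4. Its weakest summits held 3 fragments, against 5 in control replicate 2 and in each atRA list. Read totals are unknown, and the part of depth in the absence of a peak was not tested. On the same chromosomes the control lists held 103127 and 105524 peaks and the atRA lists 135299 and 132311. Over the 16 libraries of the other antibodies the number of peaks ran from 23920 to 254915, both in Raraa libraries, and the background from 0.199 to 2.17.

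The absent sites were weak Sox3 sites. In control replicate 1 their median fold enrichment (the authors' ratio of the summit over its local background) was 4.65, with quartiles of 4.09 and 5.21, against 6.46 (4.94 and 8.96) at the kept sites. In control replicate 2 the medians were 4.57 (4.06 and 5.50) and 7.09 (5.41 and 9.32). The median summit was covered by 6 fragments in control replicate 1 and 10 in control replicate 2, and by 11 and 20 fragments at the kept sites. Within their own lists, the absent sites had a median percentile of 41.9 and 41 by the authors' p, where 100 is the strongest peak, and the kept sites 81.6 and 84.3.

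When the sites of both controls were ordered by their mean percentile in the 2 lists and divided into 10 bins of equal number, the share of absent sites fell from 44.3% in the weakest bin (1924 of 4345 sites) to 9.64% in bin 5 and 0.207% in bin 9 (9 of 4346 sites). None of the 4346 sites in the strongest bin was absent. The 3 weakest bins held 34.6%, 23.4% and 15.6% of all absent sites. Only 2 absent sites were among the 10000 strongest peaks of both control lists, compared with 6384 kept sites. With a q-value of at most 1e-05 in both controls, 570 sites were absent, which is 2.56% of the 22247 sites that passed this stricter threshold.

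**Figure D1:**
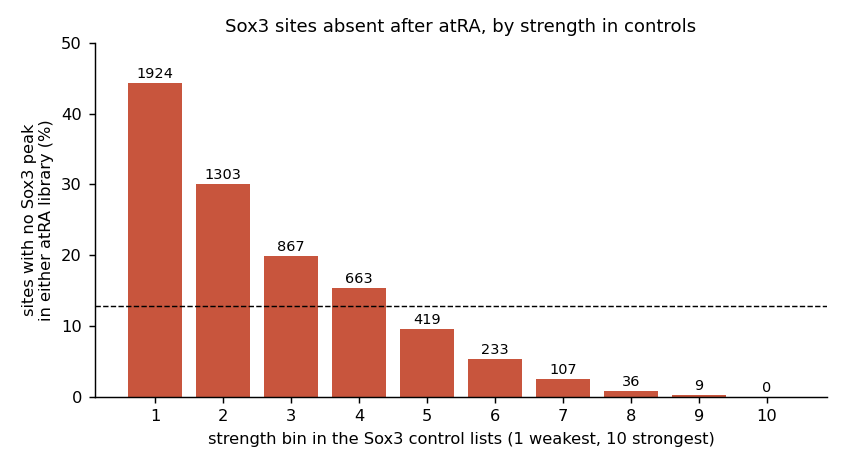
Percentage of Sox3 sites of both controls that had no Sox3 peak in either atRA library, by strength bin (mean percentile of −log10 p in the 2 control lists). Numbers above the bars are absent sites, and the dashed line is the 12.8% over all sites; the bars fall from 44.3% in the weakest bin to none in the strongest.

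The 2 control peaks at an absent site also matched each other less closely. Their summits lay a median of 74 bp apart (quartiles 32 and 135 bp), against 58 bp (23 and 126 bp) at the kept sites, and 37.4% of absent sites had summits within 50 bp, against 45.7% of kept sites. The partner peak covered at least 50% of the anchor peak at 73.6% of absent and 92.6% of kept sites. The peaks themselves were narrow, with median widths of 168 bp at absent and 275 bp at kept sites in control replicate 1. These differences in position were not tested.

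The distance from absent sites to Sox3 peaks of treated embryos varied widely. The atRA lists held 135299 and 132311 peaks, and the distance that such numbers alone would give was not computed. The median distance to the nearest Sox3 peak of either atRA library was 1491 bp (quartiles 264 and 3769 bp), 1218 sites (21.9%) lay within 200 bp of one, and 253 sites (4.55%) were more than 10000 bp away. At the edge of the rule, 210 absent sites had an atRA peak within 20 bp without overlap, and their median fold enrichment in control replicate 1 was 4.49 (quartiles 3.99 and 5.16). Just across the edge, 271 sites that an atRA peak overlapped by at most 20 bp had 4.65 (4.06 and 5.16). Each of these medians lay within the quartiles of the other set.

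**Figure D2:**
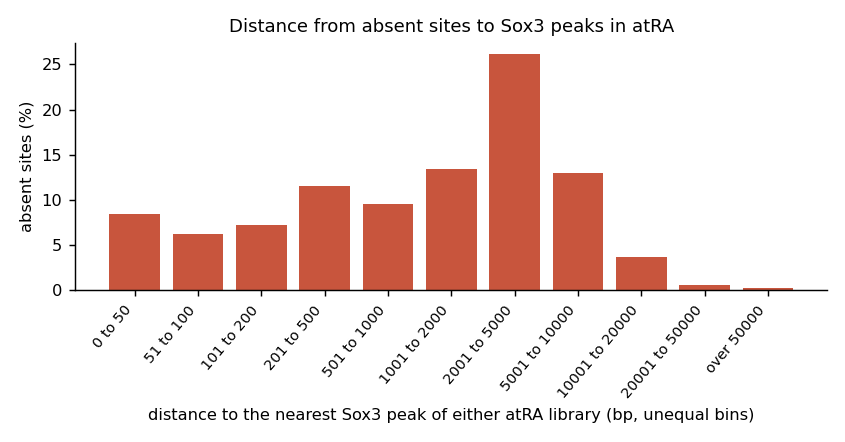
Percentage of the 5561 absent sites by distance in bp to the nearest Sox3 peak of either atRA library, in bins of unequal width. The sites within 200 bp (the 3 leftmost bars) make up 21.9% of the total.

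The 8 absent sites with the best mean percentile in the Sox3 controls show what the strongest by that mean look like. In control replicate 2 alone, partner peaks of absent sites outside these 8 went higher, to percentile 99.8 and 124 fragments. A partner peak needed only 1 bp of overlap and was up to 2927 bp wide. Its summit can thus lie outside the absent site, and these values do not establish strong Sox3 binding at the site itself. Positions are those of the deposited lists, for which the submitters' processing notes name the build GRCz10 (danRer10). Region 1, chr11:19799170-19799372, had 21 fragments at its summit in control replicate 1 and 30 in control replicate 2, with fold enrichments of 12.2 and 9.82. The 2 summits were 4 bp apart, and the nearest atRA Sox3 peak was 827 bp away. It also held weaker peaks in 4 of the 16 other libraries. These were Hoxb1b and Meis2b control replicate 2 with 6 fragments each, Raraa control replicate 2 with 7 and Raraa atRA replicate 1 with 8.

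Region 2, chr8:21765364-21765674, had the highest percentile in control replicate 1, 97.8, with 33 fragments there and 20 in control replicate 2. Region 3, chr15:17673050-17673330, had 21 and 23 fragments, and region 4, chr3:116379-116583, had 25 and 22. Region 5, chr22:9802724-9802975, was stronger in control replicate 2, with 39 fragments against 12. Region 7, chr6:25940003-25940365, had 15 and 23. None of these 5 regions held a peak in any of the 16 libraries of the other antibodies. They were seen with the Sox3 antibody in untreated embryos and in no other list.

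The remaining pair among the 8 had sparse company. Region 6, chr9:12109274-12109727, with 17 and 31 Sox3 fragments, held a Raraa peak in atRA replicate 1. Region 8, chr2:38396426-38396880, with 15 and 18 Sox3 fragments, held a Raraa peak of 12 fragments in control replicate 2 at 80% epiboly and one of 7 fragments in replicate 2 at 5 somites.

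**Figure D3:**
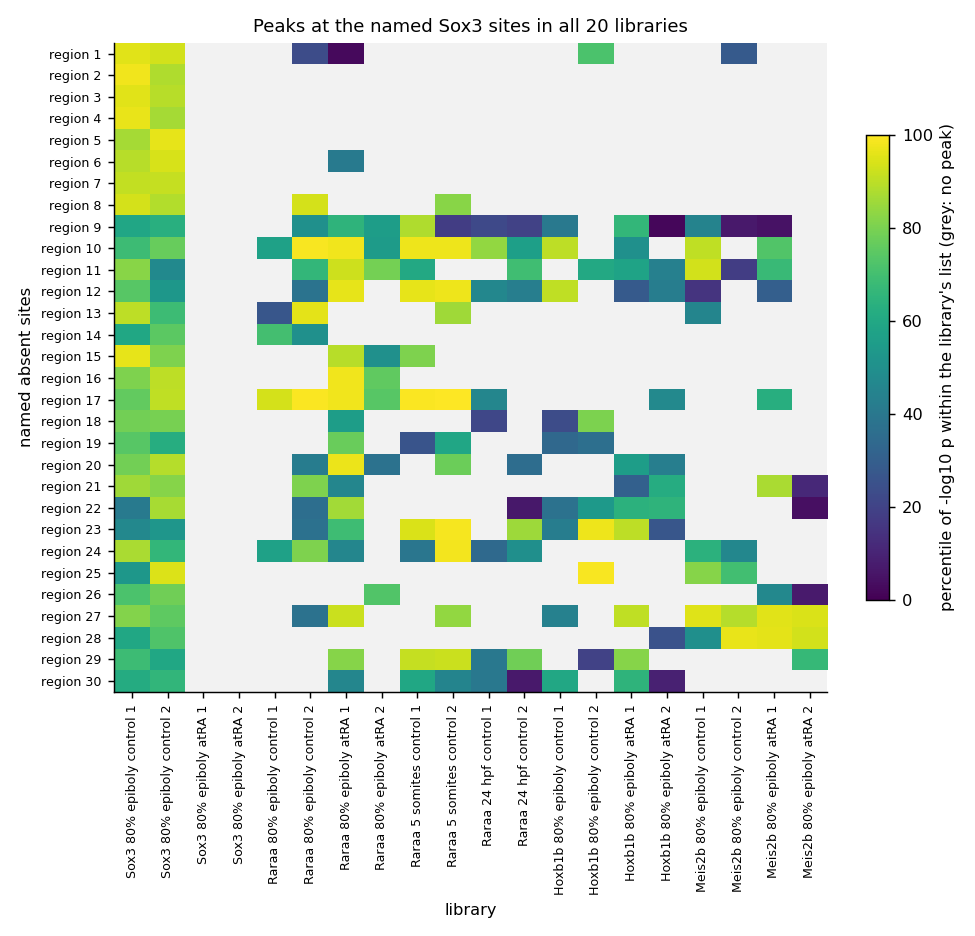
Percentile of −log10 p within each library's own list for the 30 named absent sites (rows) in all 20 libraries (columns). Grey means no peak; the 2 Sox3 atRA columns are empty because the rule requires it, and regions 2, 3, 4, 5 and 7 are empty in all 16 libraries of other antibodies.

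Solitary sites were common. Of the absent sites, 1427 (25.7%) had no peak in any of the 16 libraries of the other antibodies, against 9.85% of all sites of both Sox3 controls. The median absent site had a peak in 2 of these libraries and the median kept site in 6. A peak in 8 or more of them was found at 132 absent sites (2.37%), against 25.6% of all sites. No absent site had a peak in more than 13.

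Hoxb1b was called at few absent sites under either treatment. A Hoxb1b peak was present at 7.59% and 11% of absent sites in control replicates 1 and 2 and at 12.9% and 10.9% in atRA replicates 1 and 2. Over all sites of both Sox3 controls the same libraries gave 17.5% and 18.4% in controls and 57.0% and 48.4% with atRA. At absent sites the treatments overlapped, with means of 9.31% ± 2.44 for the controls and 11.9% ± 1.41 for atRA (SD, n = 2 each). At kept sites they did not, with 21.0% ± 0.0770 and 65.7% ± 7.34 (SD, n = 2 each). With 2 libraries against 2, no two-sided permutation test can give a p under 0.333, and none was run.

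Meis2b was called at still fewer absent sites with atRA. Control replicates 1 and 2 had peaks at 6.15% and 9.28% of them and atRA replicates 1 and 2 at 7.05% and 4.39%, so the treatments overlapped. The background over all sites was 13.7% and 16.4% in controls and 34.7% and 28.3% with atRA. The means at absent sites were 7.71% ± 2.21 in controls and 5.72% ± 1.88 with atRA, while at kept sites they were 17.7% ± 1.92 and 40.3% ± 5.24 (SD, n = 2 each). With both antibodies the atRA libraries thus lay above the controls over all Sox3 sites and over kept sites, and overlapped them at the absent sites, which had been selected on the Sox3 antibody alone.

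Raraa, the receptor itself, differed more between replicates than between treatments. It was called at 2.82% and 23.6% of absent sites in control replicates 1 and 2, and at 36.9% and 6.82% in atRA replicates 1 and 2. Over all sites the values were 11.7% and 40.4% in controls and 63.0% and 26.5% with atRA. Among these 4 libraries Raraa atRA replicate 1, with the highest background and the longest list of the series, was the highest in each set. Raraa control replicate 1, the shortest list, was the lowest. The part of depth in these values was not tested. The difference of the means at absent sites was 8.65 percentage points, below the replicate spread of 18.3 points, and it was -6.37 points without atRA replicate 1 and -1.72 points without control replicate 1.

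Because absent sites were weak, the kept sites were also weighted to the same distribution over the strength bins. So weighted, kept sites held a Hoxb1b peak in 13.5% and 15.1% of cases in controls and in 53.7% and 43.5% with atRA. For Meis2b the weighted values were 10.1% and 13.3% in controls and 30.5% and 22.2% with atRA. For Raraa they were 8.14% and 35.8% in controls and 62.1% and 20.3% with atRA. The weighting did not allow for the greater width of the kept sites. In all 16 libraries the absent sites had fewer peaks than the kept sites of like Sox3 strength. In percentage points this gap was wider in both atRA libraries than in both controls at 80% epiboly, with all 3 antibodies. For Raraa, however, it was only slightly wider in atRA replicate 2 than in control replicate 2. A gap in points also depends on how many sites a library covers. Taken as a ratio to the weighted kept value, the Raraa values overlapped between the treatments. Within the absent set the values changed with strength in some libraries and not in others. Over the weakest, middle and strongest of 3 equal parts of the set, Hoxb1b atRA replicate 1 had 11.4%, 12.8% and 14.4%, and replicate 2 had 8.95%, 11.1% and 12.6%. Hoxb1b control replicate 1 had 6.42%, 8.63% and 7.71%, and Raraa atRA replicate 1 had 37.2%, 38.2% and 35.2%. In the latter 2 libraries the middle part was the highest.

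**Figure D4:**
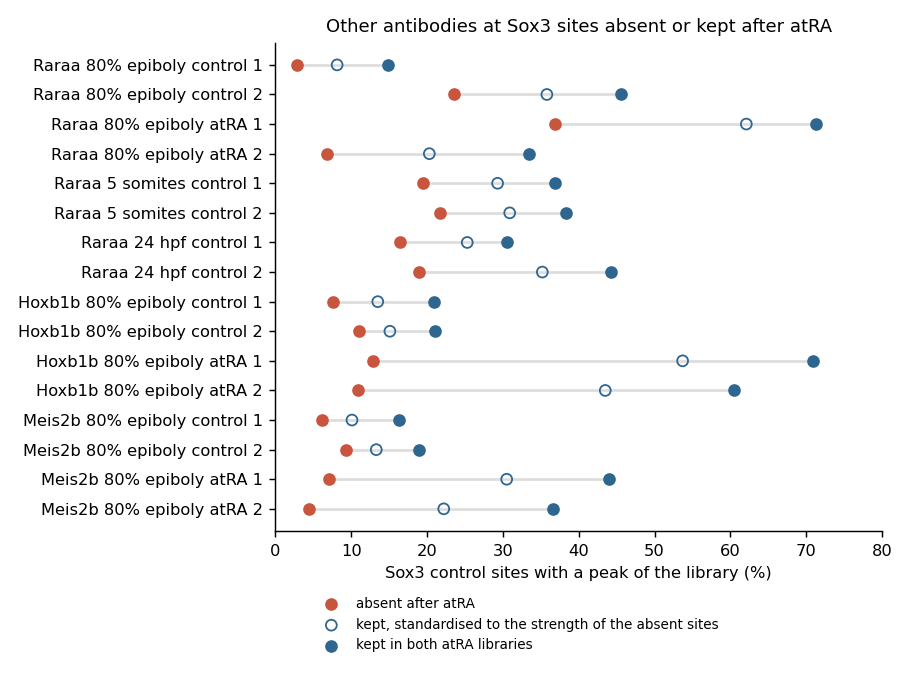
Percentage of Sox3 control sites that held a peak, for each of the 16 libraries of other antibodies (rows; the last digit is the replicate). Red points are sites absent after atRA, filled blue points are sites kept in both atRA libraries, and open points are kept sites weighted to the strength of the absent ones; the distance between red and blue is widest for the Hoxb1b atRA libraries.

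A measure meant to depend less on list length is the share of a library's peaks at Sox3 control sites that fell on absent sites. By number, absent sites were 12.8% of all sites. They were also narrower, with a median of 168 bp against 239 bp over all sites in control replicate 1, and width was not allowed for. This measure was added after the data had been seen. For Hoxb1b it was 5.54% and 7.67% in controls and 2.89% and 2.88% with atRA. For Meis2b it was 5.75% and 7.22% in controls and 2.60% and 1.98% with atRA. Both atRA libraries lay below both controls with each of these antibodies. Over the full lists, the lower share for Hoxb1b came with more occupied Sox3 control sites as a whole and not with fewer occupied absent sites. The Hoxb1b lists were also longer with atRA, at 86866 and 71640 peaks against 42278 and 58750 in controls. All sites with a Hoxb1b peak numbered 7615 and 8004 in controls and 24755 and 21035 with atRA, and the absent sites among them 422 and 614, and 716 and 605. For Meis2b the numbers over all sites were 5949 and 7144, and 15064 and 12300, and over absent sites 342 and 516, and 392 and 244. For Raraa the share was 3.09% and 7.46% in controls and 7.49% and 3.30% with atRA, and the treatments overlapped. The 2 higher Raraa shares were those of the longer lists, with 131936 and 254915 peaks, against 23920 and 59938. The measure was thus not free of list length.

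With the same number of peaks taken from every list (the 23920 strongest, the length of the shortest list), the share of peaks at absent sites was lower in both atRA libraries than in both controls with all 3 antibodies. It was 3.09% and 3.97% in Raraa controls and 1.94% and 1.78% with atRA. It was 4.68% and 6.23% in Hoxb1b controls and 0.778% and 1.11% with atRA, and 5.28% and 6.00% in Meis2b controls and 1.26% and 1.17% with atRA. Of the absent sites themselves, 4.28% and 4.69% then held a Hoxb1b peak in controls and 2.09% and 2.61% with atRA. For Meis2b these values were 5.09% and 4.75% in controls and 2.28% and 1.92% with atRA. Over all sites of both Sox3 controls, Hoxb1b had 11.7% and 9.64% in controls and 34.3% and 30.0% with atRA. Meis2b had 12.3% and 10.1%, and 23.2% and 21.1%. Since each list was held to 23920 peaks, these percentages are relative and do not by themselves show loss at absent sites. For Raraa this percentage overlapped between the treatments, at 2.82% and 4.84% in controls and 3.67% and 2.37% with atRA. The difference of the Hoxb1b means at absent sites, 2.56 percentage points over the full lists, was -2.14 points in lists of equal length. Background was higher with atRA than in controls for Hoxb1b, at 0.910 and 0.533 against 0.235 and 0.286, and its part in these values was not tested. The cut also removed weaker peaks unequally. It kept all of Raraa control replicate 1 but only the strongest of 254915 peaks of Raraa atRA replicate 1. For Hoxb1b it was made from 42278 and 58750 peaks in controls and from 86866 and 71640 with atRA. The part of this unequal cut in the lower atRA shares was not tested.

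**Figure D5:**
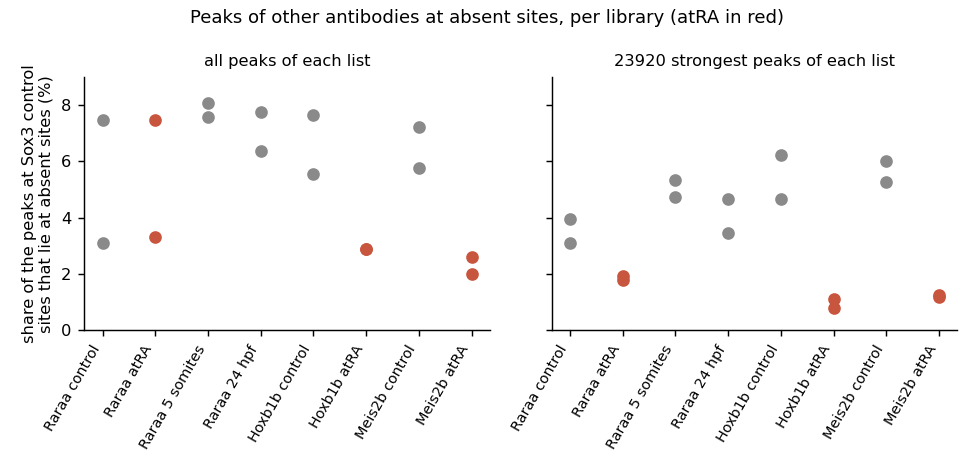
Share of each library's peaks at Sox3 control sites that fell on absent sites, with all peaks of each list (left) and with the 23920 strongest (right). Each point is 1 library, grey for untreated and red for atRA; on the right the red points lie below the grey control points of the same antibody at 80% epiboly.

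Counted site by site, few absent sites held a second factor in both controls and neither atRA library. Hoxb1b was called in both controls and neither atRA library at 53 absent sites (0.953%, against 0.502% of all sites), Meis2b at 54 (0.971%, against 0.764%) and Raraa at 18 (0.324%, against 0.338%). The opposite pattern, both atRA libraries and no control, was found at 113 absent sites for Hoxb1b (2.03%, against 22.3% of all sites), at 27 for Meis2b (0.486%, against 10.3%) and at 114 for Raraa (2.05%, against 6.56%). All 4 libraries of an antibody were positive at 8 absent sites for Hoxb1b (0.144%, against 5% of all sites), 7 for Meis2b (0.126%, against 4.24%) and 11 for Raraa (0.198%, against 6.19%). None of the 4 was positive at 67% of absent sites for Hoxb1b (against 29.1% of all sites), 78.2% for Meis2b (against 49.4%) and 50% for Raraa (against 27.2%). Both controls, whatever the atRA lists, held a peak at 81 absent sites for Hoxb1b (1.46%, against 6.24% of all sites), 76 for Meis2b (1.37%, against 5.93%) and 66 for Raraa (1.19%, against 8.65%). Over all sites these numbers were 2712, 2575 and 3758, of which 218, 332 and 147 had no atRA peak. A peak in 1 or 2 controls and no atRA library was more frequent at absent sites. The values were 12.2% against 5.73% of all sites for Hoxb1b, 11.3% against 8.22% for Meis2b and 10.6% against 7.2% for Raraa. At most of these absent sites 1 control alone held the peak, since both controls did at only 53, 54 and 18.

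Taking any of the 3 antibodies together at 80% epiboly, 756 absent sites (13.6%) had a peak in at least 1 control library and in no atRA library, against 5.14% of all sites. Another 1309 (23.5%, against 26.9%) had one in an atRA library and in no control, and 1556 (28.0%, against 54.7%) had both. The other 1940 absent sites (34.9%, against 13.3%) had a peak in none of the 12 libraries. The sites of 2 of these classes, those with a peak in atRA libraries alone and those with one in both treatments, held a peak of another antibody in at least 1 atRA library. Raraa atRA replicate 1, the longest list, weighed most in them. It had a peak at 2050 absent sites (36.9%, against 63% of all sites), and each other atRA library at 244 to 716.

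Individual sites illustrate these classes. Region 25, chr4:47528142-47528286, had 6 and 26 Sox3 fragments in the controls, Meis2b peaks of 6 fragments in both controls and a Hoxb1b peak of 13 fragments in control replicate 2. It had no peak in any atRA library, and the nearest atRA Sox3 peak was 52374 bp away. Region 24, chr21:9898376-9898551, held Meis2b in both controls (6 and 5 fragments) and in neither atRA library, while Raraa was called in 7 of its 8 libraries. Region 18, chr12:19119381-19119643, held Hoxb1b peaks of 4 and 6 fragments in both controls, and region 19, chr9:20330592-20330744, held 6 and 6. Both also held a Raraa peak in atRA replicate 1, of 12 and 15 fragments, and Raraa peaks at a later stage. Region 13, chr1:25429946-25430277, held Raraa peaks of 6 and 13 fragments in the controls and region 14, chr24:26338967-26339122, of 8 and 11.

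Other sites held a factor in the treated lists alone. Region 21, chr14:22294434-22294840, held both Hoxb1b (8 fragments in each atRA library) and Meis2b (11 and 4 fragments) with atRA and neither in controls, and an atRA Sox3 peak lay 35 bp away. Region 20, chr4:4263575-4263794, held Hoxb1b peaks of 11 and 7 fragments with atRA, with an atRA Sox3 peak at 25 bp. Region 26, chr2:29995517-29995783, held Meis2b peaks of 8 and 4 fragments with atRA, and the nearest atRA Sox3 peak was 5 bp away. Region 16, chr12:25877196-25877364, held Raraa peaks of 28 and 10 fragments with atRA and no other peak. Region 15, chr4:4906428-4906663, held Raraa peaks of 16 and 7 fragments with atRA, and another at 5 somites.

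A few absent sites held another factor in all 4 of its libraries at 80% epiboly, at varying strength. Region 28, chr8:29957249-29957443, had Meis2b peaks at percentiles 49.8 and 96.8 of their lists in controls, and 96 and 93.1 with atRA. Their summits held 9 and 12 fragments, then 33 and 21. Region 27, chr10:34057775-34057928, had Meis2b peaks at percentiles 95.1 and 88.9 in controls, and 95.5 and 94.4 with atRA. Sox3 peaks of atRA libraries lay 48 and 14 bp from these regions. Hoxb1b was called at region 22, chr23:36232606-36232921, with 7, 7, 16 and 13 fragments (2 controls, then 2 atRA libraries), and at region 23, chr20:15654217-15654362, with 7, 11, 24 and 10. The fold enrichments in that order were 4.63, 4.84, 4.36 and 4.98 at region 22. At region 23 they were 4.79, 7.13, 6.29 and 4.11. At both regions, the summits of the 2 Sox3 control peaks were far apart, 415 and 378 bp. Region 17, chr16:54625200-54625472, held Raraa peaks of 15, 47, 45 and 13 fragments in the same order, of 46 and 92 fragments at 5 somites, and of 9 fragments in replicate 1 alone at 24 hpf. Its fold enrichments in the 4 gastrula libraries were 6.12, 5.88, 4.85 and 4.58. Background differed between the lists, so fragment numbers do not rank libraries or treatments by strength.

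The absent sites with the most company were regions 9 to 12. Region 9, chr1:27348007-27348475, had a peak in 13 of the 16 libraries, with summits of 5 to 15 fragments, and stood highest in Raraa replicate 1 at 5 somites, at percentile 88.1. Region 10, chr4:55474682-55474845, had a peak in 12, among them all 8 Raraa libraries, and reached percentile 99 in Raraa control replicate 2 at 80% epiboly. Regions 11, chr22:26834388-26834749, and 12, chr12:25509796-25509985, had peaks in 11 each. All 4 had an atRA Sox3 peak at a distance of 85 to 163 bp.

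Raraa at later stages was called at 19.4% and 21.7% of absent sites at 5 somites and at 16.4% and 19.0% at 24 hpf, replicates 1 and 2 in turn. Over all sites of both Sox3 controls these values were 32.8% and 34.3% at 5 somites and 27.0% and 38.2% at 24 hpf. The means at absent sites were 20.5% ± 1.60 at 5 somites and 17.7% ± 1.83 at 24 hpf, against 13.2% ± 14.7 in controls at 80% epiboly (SD, n = 2 each). By this measure, over lists of unequal length, all 4 later libraries lay between the 2 control libraries of the gastrula. Without gastrula control replicate 1 the differences changed sign, to -3.02 points for 5 somites and -5.86 points for 24 hpf.

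Both 5-somite libraries had a Raraa peak at 441 absent sites (7.93%, against 19.2% of all sites), and both 24 hpf libraries at 303 (5.45%, against 16.5%). At 9 absent sites (0.162%, against 3.88%) all 6 untreated Raraa libraries had one. At 1884 absent sites (33.9%, against 17.4%) none of the 8 Raraa libraries did. Raraa appeared in both libraries of both later stages, and in no gastrula control, at 38 absent sites (0.683%, against 1.25%). Of these, region 29, chr3:58375996-58376204, had 10 and 9 Raraa fragments at 5 somites and 6 and 8 at 24 hpf, and a Raraa peak of 14 fragments in atRA replicate 1 of the gastrula. Region 30, chr7:69406663-69406916, had 8 and 7, then 6 and 5, and a Raraa peak of 11 fragments in the same atRA replicate.

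The share of a library's Sox3-site peaks that fell on absent sites was 7.57% and 8.09% for Raraa at 5 somites and 7.77% and 6.36% at 24 hpf. The gastrula controls had 3.09% and 7.46%, below both libraries of 5 somites and overlapping those of 24 hpf. In lists of equal length the share was 4.73% and 5.35% at 5 somites and 4.67% and 3.45% at 24 hpf, against 3.09% and 3.97% in the gastrula controls. The percentage of absent sites with a Raraa peak was then 5.05% and 6.11% at 5 somites and 3.70% and 4.50% at 24 hpf, against 2.82% and 4.84%. With list length held equal, both 5-somite libraries thus lay above both gastrula controls by either measure, and the 24 hpf libraries overlapped them. By the percentage the margin was narrow, 5.05% against 4.84%. Over all sites of both Sox3 controls the 5-somite libraries, at 13.7% and 14.6%, lay between the gastrula controls, at 11.7% and 15.6%. The 23920 peaks were the full list of gastrula control replicate 1 but only part of the 109146 and 116351 peaks at 5 somites.

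Where another antibody was called at an absent site, its peak was of middling strength in its own list. The median percentile of such peaks was 50.5 and 49.3 in Hoxb1b controls and 41.1 and 43.7 with atRA, whereas at kept sites it was 64.6 and 64.4 in controls and 82.5 and 80.6 with atRA. For Meis2b it was 45.6 and 53.3 in controls and 41.3 and 44.0 with atRA, and at kept sites 68.2 and 66.7, and 78.6 and 75.3. For Raraa at 80% epiboly it was 46.5 and 54.2 in controls and 62.0 and 46.8 with atRA. At kept sites these Raraa values were 68.1 and 73.7, and 87.2 and 79.2. Later Raraa libraries had 55.3 and 56.6 at 5 somites and 52.9 and 53.0 at 24 hpf at absent sites. Absent sites were found on all 25 chromosomes. Their share of all sites of both Sox3 controls ran from 10.2% on chromosome 7 to 15.1% on chromosome 4. Among absent sites, 67 neighbouring pairs had summits within 1000 bp of each other. Such pairs were not counted over all sites, so clustering was not tested.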

How the data were processed

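The data are 20 peak lists, 1 per library, with no header. Bowtie, SAMtools and MACS2 and the build GRCz10 (danRer10) are named in the submitters' processing notes, without versions. The use of an input and the handling of duplicates are not given in the sources used here. Each entry holds the authors' fold enrichment (a ratio), and the deposited −log10 p and −log10 q of the summit, with q-values up to 0.05. Both Sox3 control lists carry the number 2 in their peak names, while the labels call them replicates 1 and 2. They were kept as separate libraries.

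Samples were grouped by the labels into 10 groups of 2. The stage was taken from the titles. Overlap needed at least 1 bp, and the strongest overlapping peak gave the values. Summit fragments k and background b were recovered from fold = (k+1)/(b+1) and the Poisson p, solved for 100% of peaks to within 0.002 in −log10 p. The 0.001 quantile of b served as the background. The procedure recovered 100% of 4855 simulated peaks. Apart from values printed for named regions, fold enrichment was used within lists only, and read totals are unknown. Python 3.11.15, numpy 2.4.6, pandas 2.3.3 and scipy 1.17.1 were used.

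The members and lists were chosen with earlier results of these data known, so no p-value is given. Named regions were the 8 absent sites strongest by mean percentile, the 4 with peaks in most libraries, and 2 for each pattern of each antibody. Region 10 and region 21 met this rule in 2 ways. Sequences and neighbouring genes of the sites were not analysed here.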

Additional observations from a re-analysis of the deposited data

How the results depend on the processing

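No paired analysis was possible because none of the results comes from a test, and the replicate numbers are not said to pair libraries across antibodies. The number of absent sites was within 1.5 times of 5561 under the overlap rules, the q-value of 0.01 and the other anchor. It fell to 3534 with q of at most 0.001 in both controls and to 570 with 1e-05, the latter chosen after seeing the data. Leaving out 1 Sox3 library at a time gave 8658 to 47374 sites, which follows from the weaker demand.

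The atRA minus control difference in the percentage of absent sites with a peak was 8.65 points for Raraa, 2.56 for Hoxb1b and -2.00 for Meis2b. With the 23920 strongest peaks of each list it reversed to -0.809 for Raraa and -2.14 for Hoxb1b. Peaks within 200 bp moved Hoxb1b to 5.18. Without 1 library at a time the ranges were -6.37 to 23.7 (Raraa), -0.440 to 7.49 (Hoxb1b, lowest without Sox3 control replicate 2) and -3.56 to 0.0546 (Meis2b, highest without Sox3 atRA replicate 2). They were -3.02 to 17.7 for Raraa at 5 somites minus 80% epiboly, -5.86 to 14.9 for 24 hpf minus 80% epiboly and -4.14 to -1.36 for 24 hpf minus 5 somites.

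For the share of peaks at absent sites the differences were 0.115 points (Raraa), -3.72 (Hoxb1b) and -4.19 (Meis2b). Requiring 50% of the anchor to be covered gave -0.706, -5.24 and -5.16, and for Raraa the 23920 strongest peaks gave -1.67. Hoxb1b and Meis2b stayed below 0 in every alternative and with every library left out, at -14.3 to -2.66 and -12.2 to -3.46. Raraa ran from -2.07 to 2.30, and its stages from 0.367 to 7.76 (5 somites minus 80% epiboly), -0.399 to 6.31 (24 hpf minus 80% epiboly) and -1.55 to -0.0609 (24 hpf minus 5 somites). The cause of these movements was not tested.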
